A study of Mus musculus with 4 samples.

Results

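Cytl1 (cytokine-like protein 1, also called C17) was followed as 1 gene of the 18767 listed for single cells of mouse aortas. It was chosen by its measured values in these cells, namely its high level over endothelial cells (EC), so its level, its rank, its distribution over cells, its values in EC and in other cells and its correlations are given as descriptions, with no test. The study asked what Jag1, a Notch ligand, does in aortic EC. Cells came from mice labelled Jag1 ECKO (Jag1 fl/fl carrying one copy of Cdh5-CreERT2) and from age- and sex-matched controls labelled Jag1 ECWT (Jag1 fl/fl with Cdh5 +/+, hence both floxed alleles but no Cre), all male, on C57BL/6J and aged 1.5 to 3 months. Both groups had received 2 mg of tamoxifen per day for 5 days, which switches on the Cre, and the Cre was driven by the Cdh5 promoter, which is active in EC and not in fibroblasts or smooth muscle cells. Aortas from the root to below the iliac artery were digested with enzymes, and live CD31+ CD45- cells (CD31 is the product of Pecam1) were sorted singly into plate wells, giving 2 libraries for each label. How many animals entered a library, and whether the mice of these libraries were on a diet or given a virus, was not given in the sources used here.

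Of 991 cells, 824 had more than 1200 genes detected. By marker genes 13 of 14 clusters were EC-like, with 194 and 224 cells in the ECKO libraries and 137 and 239 cells in the ECWT libraries, and all 10 EC markers had counts in every library. The remaining cluster of 30 cells raised markers of fibroblasts and of VSMC, the smooth muscle cells of the vessel wall. By whichever of the fibroblast and VSMC marker sums was larger it was divided into 17 fibroblast-like and 13 VSMC-like cells, and in 1 cell both sums were within 2-fold of each other. The EC marker sum was not part of this division. EC had a median of 4108 to 6444 counts per cell by library. Well numbers recur by design, and 86 of 373 occurred in all 4 libraries. The targeted gene went against the labels, with Jag1 at 164 and 72.6 CPM (counts of the gene scaled to a common library total) over EC in the libraries labelled ECKO and at 30.8 and 26.4 CPM in those labelled ECWT. The counts come from the 3′ end of transcripts, and which part of Jag1 was deleted is not given in the sources used here, so this value does not check the deletion. Why Jag1 was higher under the ECKO label was not tested, and an exchange of the labels cannot be told apart here. In the study the loss of Jag1 was checked separately, by qRT-PCR on RNA from the endothelium and by staining of the opened aorta, and those measurements are not analysed here. In what follows "ECKO" and "ECWT" mean the labels.

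Cytl1 encodes a small secreted protein first found in CD34+ blood-forming cells and best known from cartilage, where it is made by chondrocytes during their differentiation. The chemokine receptor CCR2 has been proposed as its receptor. The aortic endothelium is a single layer of flattened cells that lines the vessel, and it secretes matrix proteins, growth factors and chemokines toward the wall and the blood.

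In GRCm38 the gene lies on the plus strand of chr5:37735519-37739820 (ENSMUSG00000062329.4, GENCODE M21) and no other annotated gene overlaps it, so its reads are not shared with an antisense neighbour. The coding transcript, ENSMUST00000073554.3, has 4 exons. Exon 1 (chr5:37735519-37735709) holds 29 bases of 5′ UTR and 162 coding bases, the following exons have 45 and 129 bases, and the last exon (chr5:37739212-37739820) holds the remaining 81 coding bases and the 528 bases annotated after them, where 3′ counting reads fall. The window around the start (RefSeq, GRCm38.p6, chr5:37735269-37735568, plus strand, 250 bases before the start and 50 from it) is shown because the level of the mRNA is what the results turn on. Capitals mark an AT-rich run that lies 14 to 7 bases before the annotated start.
Cytl1 start window: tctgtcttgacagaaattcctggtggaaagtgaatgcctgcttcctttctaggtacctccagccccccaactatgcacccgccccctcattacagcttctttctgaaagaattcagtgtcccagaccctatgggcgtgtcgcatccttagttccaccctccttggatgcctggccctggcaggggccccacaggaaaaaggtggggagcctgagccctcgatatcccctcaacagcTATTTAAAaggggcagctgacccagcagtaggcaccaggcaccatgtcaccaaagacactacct
The letters TATTTAAA, chosen after the window was seen, occur on either strand in 1.81% of 32851 mouse windows of the same length. The TATA box TATAAA is not in the window and is in 13.6% of all windows. The KLF core CACCC occurs 2 times and is in 57.5% of windows, and the ETS core GGAA occurs 5 times over both strands and is in 96% of windows. Letters in a window are a description and no evidence of a bound factor.

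Cytl1 was among the most abundant RNAs of every library. Summed over EC it reached 7410 CPM in ECKO replicate 1, 7216 CPM in ECKO replicate 2, 7260 CPM in ECWT replicate 1 and 8441 CPM in ECWT replicate 2. These values differ little, with ECWT replicate 2 the highest, and the mean was 7582 ± 579 CPM (SD, n = 4). From 0.722% to 0.844% of all counts of an EC library were Cytl1. The counting error is small at this depth, with an exact 95% Poisson interval of 7238 to 7585 CPM for ECKO replicate 1, which covers counting only and not the spread between animals. Cytl1 ranked 4, 5, 6 and 5 among all genes in the same order of libraries.

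By the mean of the 4 libraries Cytl1 ranked 6. The 5 genes above it were Rn45s, the ribosomal RNA precursor, with 104878 CPM, Kcnq1ot1, a long non-coding RNA, with 18968 CPM, the processed pseudogene Gm17821 with 10144 CPM, Mir5109 with 9364 CPM and the mitochondrial gene mtAtp6 with 8405 CPM. No protein-coding gene of the nucleus stood above Cytl1. The 5 genes below it were mtNd4, A630089N07Rik, mtCytb, mtCo2 and the nuclear RNA Malat1, from 6548 to 5023 CPM. Several of these neighbours varied more between libraries than Cytl1 did: Kcnq1ot1 ranged from 4678 CPM in ECKO replicate 1 to 26495 CPM in ECWT replicate 2, and A630089N07Rik ranged from 1583 to 8665 CPM in the same libraries. Apart from A630089N07Rik, the next protein-coding genes of the nucleus were Pecam1 with 4858 CPM, B2m with 4611 CPM and Bgn with 4446 CPM. CPM here counts molecules by their 3′ end and is not divided by length. Divided by the longest annotated transcript, 974 bases for Cytl1, its level was 7784 CPM per kilobase and ranked 2, after mtAtp6 with 12342 and before mtCo2 with 7394 CPM per kilobase. Of the genes above Cytl1 by CPM, Rn45s and Mir5109 had no matched length and are not in that order.

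**Figure D1:**
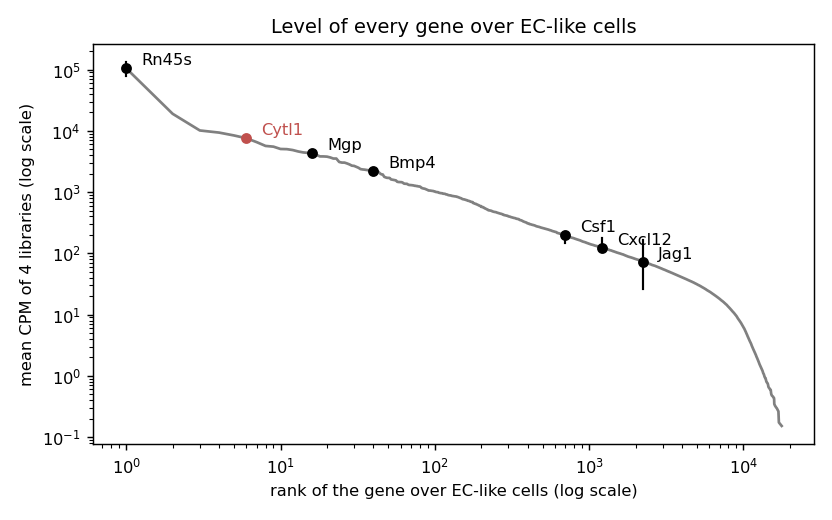
Each gene's mean CPM of the 4 libraries over EC-like cells (y axis, log scale) against its rank (x axis, log scale), with a point for the named genes and a line from the lowest to the highest library. Cytl1 sits at rank 6 with 7582 CPM, above Mgp at rank 16, Bmp4 at rank 40, Csf1 at rank 698 and Cxcl12 at rank 1208.

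No other secreted signal of the lists came near it. Over 112 genes of the chemokine, cytokine and growth factor lists the summed mean level was 5881 CPM, below the level of Cytl1 alone, and 0 of the 112 stood above it. Per count of molecules, the highest growth factor was Bmp4, a bone morphogenetic protein, with 1945, 2405, 2091 and 2414 CPM in the order of libraries given above, so Cytl1 was 3.43-fold higher by the means. Cyr61, a matrix-bound signal of sheared and stretched cells, had 593 CPM and Gas6, a ligand of the Axl receptor family, had 413 CPM. The highest cytokine was Csf1, the growth factor of macrophages, with 221, 210, 213 and 145 CPM, and Cytl1 was 38.4-fold higher by the means. The highest chemokine was Cxcl12, the ligand of Cxcr4, with 114, 104, 176 and 105 CPM, and Cytl1 was 60.9-fold higher. Ccr2, the proposed receptor, had 0, 0.61, 0 and 1.39 CPM over EC, which is too low to tell expression from free RNA at this depth. Of the chemokines of the CCR2 list that the table holds, Ccl2 had 0.3 CPM by the mean and Ccl8 had no count over EC, which allows up to 0.616 CPM.

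Nearly every EC carried Cytl1. A count was found in 194 of 194, 223 of 224, 131 of 137 and 239 of 239 EC, which is 100%, 99.6%, 95.6% and 100% (exact binomial 95% interval for the lowest, ECWT replicate 1, 90.7% to 98.4%). The median EC had 41 Cytl1 counts, with library medians of 32.5, 45.5, 41 and 44. VSMC-like cells also all had a count, but at a median of 8 at a higher median depth (7546 against 5246 counts per cell). The share of cells with a count therefore does not separate the classes. The classes differ in their median level, and single cells overlap, with VSMC-like cells at up to 8062 CPM and EC at as low as 0 CPM. On the scale of CPM per cell, the 5th percentile, median and 95th percentile were 1598, 7232 and 14075 CPM in ECKO replicate 1. They were 2571, 7492 and 13225 CPM in ECKO replicate 2, and 298, 7324 and 14864 CPM in ECWT replicate 1. In ECWT replicate 2 they were 3004, 8257 and 15053 CPM. The 4 distributions overlap over nearly their whole range, and ECWT replicate 1 differs by a longer lower end. Without the 2 clusters low in Cytl1 described below, the 5th percentiles were 3695, 3497, 2129 and 3259 CPM by library.

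Over all EC, the spread between cells was below that of most genes of like level in 3 of 4 libraries and not in ECWT replicate 1. When every EC was thinned to 2833 counts (35, 13, 12 and 20 EC by library were shallower and dropped), Cytl1 had a coefficient of variation of 46.9%, 45.3%, 58.1% and 43.5% by library, where counting alone would give 21.5%, 21.9%, 22.1% and 20.5%. Of the 16 to 18 genes whose mean was within a factor of 2 of Cytl1, only 2 varied less in each of 3 libraries, and 10 of 17 varied less in ECWT replicate 1. The thinned means were 21.6, 20.8, 20.5 and 23.8 counts per cell, near the levels before thinning. The per-cell level fell slightly with depth within libraries, with Spearman's rho from -0.125 to -0.0692 (137 to 239 EC, which share a library and whose CPM has the depth as its denominator). Pearson's r over the same cells was -0.0603, -0.0737, 0.110 and -0.0853, so ECWT replicate 1 had the opposite sign on that measure. Outside the 2 clusters low in Cytl1 described below, rho was -0.129, -0.173, -0.273 and -0.0844.

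Cytl1 was abundant in EC, but the cells with the most Cytl1 were fibroblast-like by their markers. These cells had been sorted for CD31 and carried Pecam1, so their identity is not settled here. The 6 highest cells of all 824 were fibroblast-like, with 26624, 34154, 45938 and 48974 CPM in ECKO replicate 2 and 29239 and 33708 CPM in ECWT replicate 1, whereas the highest EC had 22198 CPM. The highest of them held 788 counts, from 717 distinct molecular identifiers. Over the 17 fibroblast-like cells Cytl1 summed to 20134 CPM, against 7623 CPM over all EC, a difference of 1.40 on the log2 scale.

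The fibroblast-like cells were not uniform. In ECKO replicate 1 the 2 cells had 216 and 20524 CPM, in ECKO replicate 2 the 10 cells ran from 5139 to 48974 CPM with a median of 17386 CPM, in ECWT replicate 1 the 3 cells had 6363, 29239 and 33708 CPM, and in ECWT replicate 2 the 2 cells had 3436 and 5179 CPM. In 2 of these cells the EC marker counts were above the fibroblast marker counts, with 73 against 60 in the cell of ECKO replicate 2 at 5455 CPM and 37 against 30 in the cell of ECWT replicate 2 at 5179 CPM. Of the 17 cells, 10 were above the median EC and 9 were above the 95th percentile of EC. By library the difference from EC was 0.32, 1.67, 1.60 and -0.85 on the log2 scale, so it was positive in 3 of 4 libraries and negative in ECWT replicate 2, and ECKO replicate 2 holds 10 of the 17 cells. Without that library the difference was 0.72 on the log2 scale, and without the 2 highest cells it was 0.85.

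These fibroblast-like cells carried Pecam1 in 17 of 17 cells, at 3134 CPM against 4836 CPM in EC (840, 3313, 3794 and 2514 CPM by library), but little of the other defining EC genes. Vwf (von Willebrand factor) was at 127 CPM against 1737 CPM in EC and had a count in 9 of 17 cells, and Cdh5 (VE-cadherin) was at 74.8 against 398 CPM and had a count in 7 of 17. Dcn, the fibroblast matrix gene decorin, was at 15579 CPM against 513 CPM in EC. Their median cell had 106 fibroblast marker counts, 34 EC marker counts and 3 VSMC marker counts. Cytl1 made up 4.41 counts for each count of the 10 EC markers in these cells, and 0.740 in EC. By library this ratio was 7, 4.80, 4.77 and 0.970 in the fibroblast-like cells.

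The 13 VSMC-like cells were low in Cytl1, with 1307 CPM over all of them, a median of 901 CPM and a range of 154 to 8062 CPM. By library the difference from EC was -3.00 in ECKO replicate 1, -3.49 in ECKO replicate 2 and -1.68 in ECWT replicate 2 on the log2 scale, and ECWT replicate 1 had no such cell. Summed over these cells, Cytl1 made up 0.786 counts for each EC marker count, near the 0.740 of EC, and by library the ratio was 0.844, 0.806 and 0.754 against 0.632, 0.712 and 0.872 in EC. Single cells scattered around this ratio. The cells with 34 and 43 Cytl1 counts held 37 and 91 EC marker counts, the cell highest by CPM held 31 Cytl1 and 23 EC marker counts, and other cells of ECWT replicate 2 held 18 against 11 and 4 against 1. Whether EC RNA in these wells accounts for the Cytl1 counts was not tested. Taking the 30 cells as 1 class hides this, since EC against all other cells then differed by -0.45 on the log2 scale and turned to 0.71 without ECKO replicate 2.

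**Figure D2:**
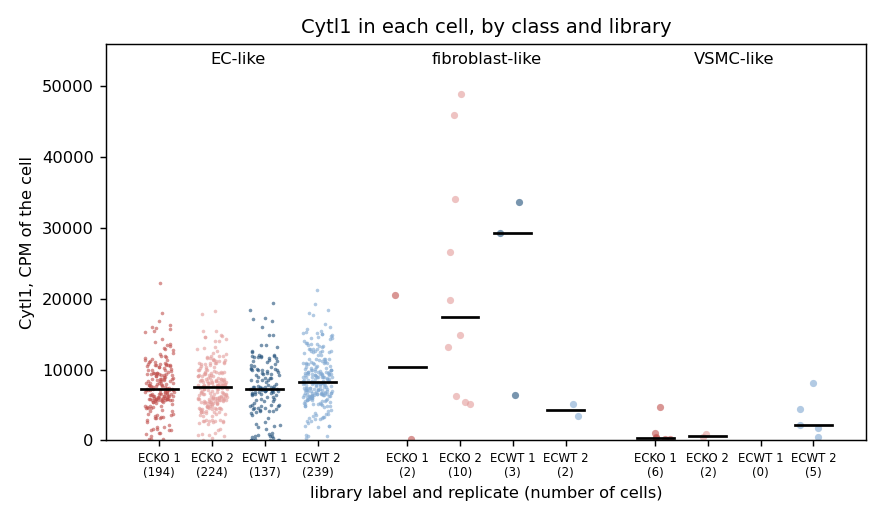
Cytl1 in CPM of each cell (y axis) for EC-like, fibroblast-like and VSMC-like cells of each library (x axis, number of cells in brackets), with 1 point per cell and a bar at the median. The 6 cells above the highest EC (22198 CPM) are fibroblast-like, and the VSMC-like cells lie between 154 and 8062 CPM.

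**Figure D3:**
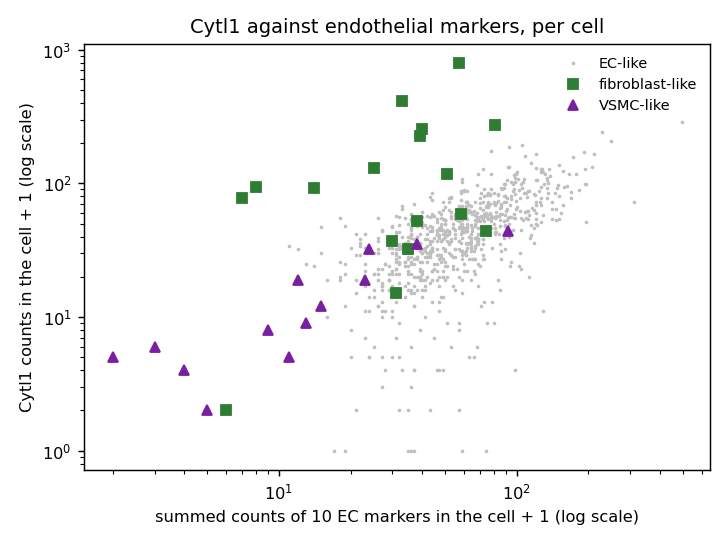
Counts of Cytl1 plus 1 (y axis, log scale) against summed counts of the 10 EC markers plus 1 (x axis, log scale) in each cell. VSMC-like cells lie at lower counts and scatter around the ratio of EC (0.786 against 0.740 Cytl1 counts per EC marker count), and most fibroblast-like cells lie above it (4.41).

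Cytl1 is known from cartilage, so the cartilage list was read in the same classes. Of its 32 genes in the table, 3 passed a minimum of a count in 10% of EC of every library: Mgp (matrix Gla protein, an inhibitor of calcification) with 4276 CPM, Fgfr3 with 69.7 CPM and Trps1 with 41.8 CPM. The chondrocyte transcription factor Sox9 had 12 counts in 794 EC and 28 counts in 5 of 17 fibroblast-like cells. Prg4, the joint lubricant lubricin, had 48 counts in 40 EC and 188 counts in 10 of 17 fibroblast-like cells, 119 of them in 1 cell. Chad (chondroadherin) had 30.6 CPM in EC and 613 CPM in fibroblast-like cells, where 4 cells held its 82 counts and 1 cell held 64. Comp, a cartilage matrix protein, had 25 counts in 2 fibroblast-like cells, and Mgp had 18339 CPM there, with a count in 16 of 17 cells. Fgfr3 went the other way, with 64.7 CPM in EC and 7.48 CPM in fibroblast-like cells. All 4 cells with Chad, both cells with Comp, 4 of the 5 with Sox9 and 7 of the 10 with Prg4 were of ECKO replicate 2, and without that library Chad and Comp had no count in fibroblast-like cells. The defining cartilage matrix genes Col2a1 and Acan had 0 counts in fibroblast-like cells, which allows up to 22.4 CPM, and 5 and 1 counts over all EC. The fibroblast-like cells thus held some genes of the list at higher levels than EC, mostly in cells of 1 library, and the main cartilage collagen was not detected in them.

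Among the EC clusters Cytl1 was low in 2. The 32 cells of the cluster led by Lrg1, Fabp4, Pde2a and Nr2f2 had on average 3561, 1777 and 468 CPM per cell in ECKO replicate 1, ECKO replicate 2 and ECWT replicate 1. The 17 cells of the cluster led by Gpihbp1, Igfbp3 and Cd36 had 849, 2059 and 446 CPM in the same libraries (libraries with fewer than 3 cells of a cluster are left out). Of 7 markers of capillary or lipid-handling EC the larger cluster raised 2, Fabp4 (fatty acid binding) and Cd36 (fatty acid uptake), while Rgcc and Car4 had 0 CPM. It also raised 2 venous markers, Lrg1 and the transcription factor Nr2f2, and 1 lymphatic marker. The smaller cluster raised 4 of the 7, among them Fabp4, Cd36 and Gpihbp1 (the anchor of lipoprotein lipase), and also 2 arterial markers. Here "with capillary markers" means only that 2 or more of the 7 were raised. No single vessel type is given to the 2 clusters. Together they held 49 EC, 22, 13, 11 and 3 by library, and their Cytl1 summed to 3001, 1509, 449 and 544 CPM, against 7989, 7499, 7600 and 8543 CPM in the other EC of the same libraries. The groups do not overlap by library, and the difference was -1.41, -2.31, -4.08 and -3.97 on the log2 scale. Clustering without Cytl1 returned the same 49 cells and the same 794 EC. Cytl1 ranked only 1932 among the 2000 variable genes, so leaving it out could change the clusters little. Of the 7 EC with no Cytl1 count 6 were in these clusters, and of the 14 EC below 500 CPM 12 were.

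The other 11 EC clusters stood close together, from 6766 ± 648 CPM (SD of library means, n = 3) in the cluster led by Coch, Adra2a and Fbln5 to 10435 ± 3169 CPM (n = 4) in a cluster with no clear leading genes. In between lay clusters led by Sfrp2, Thbs1 and Gdf6 (6809 ± 1183 CPM), by Vcan, Nog and Igf2 (7231 ± 1600 CPM), by Cxcl1, Cd74 and Cxcl12 (7725 ± 1359 CPM), by Nkx2-3 and Pla2g5 (7957 ± 763 CPM), by Pthlh, Hbegf and Klk10 (8531 ± 986 CPM) and by Aqp1, Igfbp5 and Lyve1 (9616 ± 1027 CPM). Neighbours in this order do not differ beyond the spread of their library means, and the step from 6766 CPM to the 1936 ± 1553 CPM of the next cluster is the exception. The 29 cells led by the dissociation response genes Nr4a1, Junb and Egr1 were all of ECKO replicate 1 and had 8938 CPM, inside this range.

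**Figure D4:**
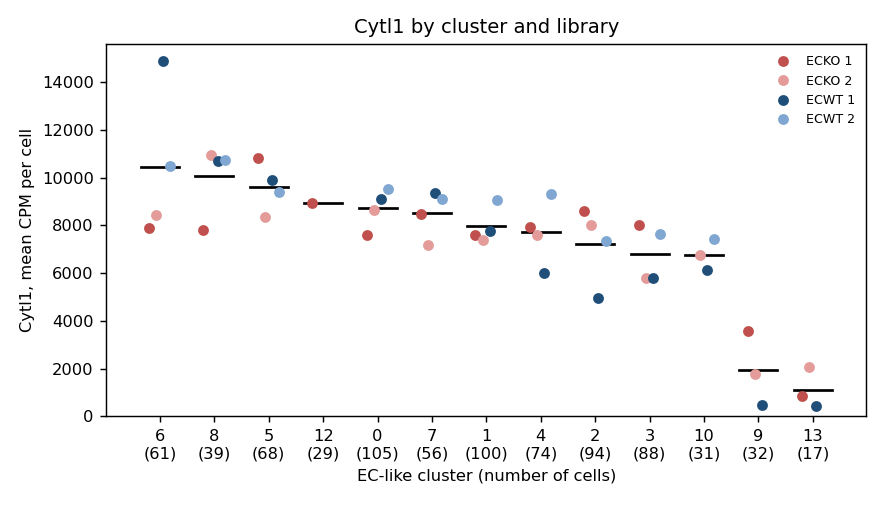
Mean Cytl1 CPM per cell (y axis) in each EC-like cluster (x axis, number of cells in brackets, ordered by level), 1 point per library with 3 or more cells and a bar at the mean of those libraries. Clusters 9 and 13, with capillary markers, lie at 1936 and 1118 CPM and the others between 6766 and 10435 CPM.

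Genes that go with Cytl1 were read as Pearson's r of log-normalized values over the EC of each library (194, 224, 137 and 239 cells), for the 5293 genes with a count in 10% of EC of every library. Cells of a library share plate and depth, so r is a description. The median of the mean r over all 5293 genes was 0.0071, and 828 genes were above 0 and 430 below 0 in all 4 libraries. The 10 genes with the highest lowest r included Bgn, Clu, Pecam1, Mgp, Spon1, Cpe, Ace, Ctsh and Sod3. Bgn (biglycan, a matrix proteoglycan) had r of 0.55, 0.43, 0.75 and 0.40, and Clu (clusterin, a secreted chaperone) had 0.52, 0.52, 0.61 and 0.38. Mgp had 0.39, 0.37, 0.43 and 0.35, and Ace (angiotensin-converting enzyme) had 0.56, 0.42, 0.54 and 0.27. Sod3, the extracellular superoxide dismutase, had 0.45, 0.40, 0.51 and 0.24. Pecam1 had 0.46, 0.40, 0.56 and 0.38, and it was the gene of the sort.

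The 10 genes with the lowest highest r were Fabp4, Tmem88, Flt1, Ets1, Fmo2, Tcf4, Gpr116, Gngt2, Trp53i11 and Eng. Fabp4 had r of -0.61, -0.49, -0.31 and -0.36, and Flt1, a receptor of VEGF, had -0.36, -0.19, -0.64 and -0.26. These genes were high in the 49 EC that are low in Cytl1: Fabp4 had 3991 CPM there against 51.9 CPM in the other EC, Flt1 had 434 against 33.3 CPM, and Eng (endoglin) had 1019 against 372 CPM. Over the other 745 EC none of the 10 lowest genes was kept among the 10 lowest, and Fabp4 and Flt1 had mean r of -0.17 and -0.090. Of the 10 highest genes 5 were kept, Bgn, Pecam1, Cpe, Clu and Sod3. There Cst3 (cystatin C) was highest with 0.26, 0.35, 0.53 and 0.39 and Bgn had 0.35, 0.25, 0.54 and 0.33, while only 18 genes reached a mean r of 0.2 and Rn45s was lowest with a mean of -0.27.

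**Figure D5:**
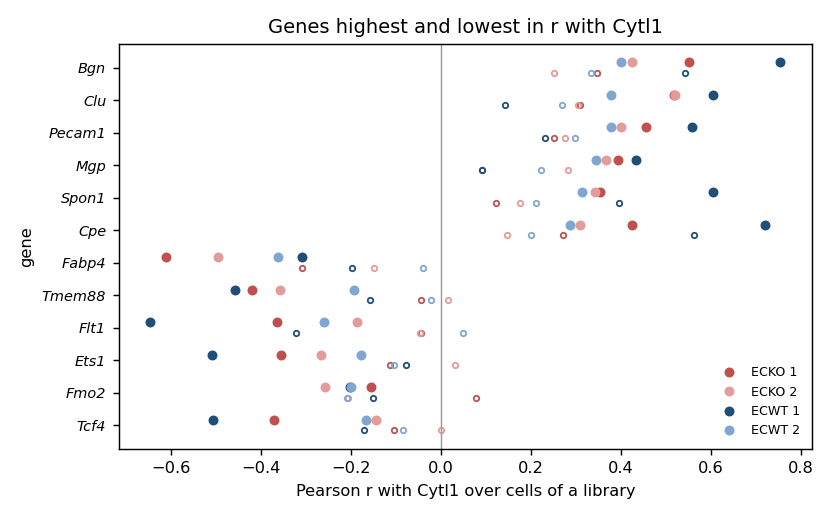
Pearson's r with Cytl1 over EC of a library (x axis) for the 6 genes highest and the 6 lowest (y axis), with filled points for all EC and open points for EC outside the 2 clusters with capillary markers. Open points lie nearer to 0 for most genes, and Bgn stays between 0.25 and 0.54.

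Of the elastic fibre and arterial matrix list 11 of 16 genes were above 0 in all 4 libraries and none below, with a median mean r of 0.15, beside 828 of 5293 and 0.0071 over all genes. Of the arterial EC list 8 of 11 were above 0 (median 0.17), and both lists hold Clu and Mgp. Of the shear stress list, which holds genes that respond to blood flow, 11 of 19 were above 0 and 3 below (median 0.084), led by Ace, with Edn1 (endothelin-1) lowest at a mean r of -0.13. Of the secretory pathway list 11 of 31 were above 0 and 2 below (median 0.046). Of the dissociation response list 0 of 31 were above 0 and 5 below (median -0.0087), and of the Notch list 5 of 14 were above 0 and none below (median 0.012). Outside the 2 low clusters the counts above 0 fell to 8 of 16 for the matrix list and 5 of 11 for the arterial list, each with 1 gene below 0, with medians of 0.081 and 0.077, beside 545 of 5293 genes and a median of -0.00075. They fell further for the shear stress list, to 5 of 19 (1 below, median 0.049), the secretory pathway list, to 4 of 31 (1 below, median 0.015), and the Notch list, to 1 of 14 (none below, median 0.019). The dissociation response list changed to 3 above and 1 below (median -0.016). The 5293 genes were not matched to any list by level. The genes given above as highest in r over all EC were abundant, from 746 CPM (Spon1) to 4858 CPM (Pecam1) by the mean. Whether r depends on the level of a gene was not tested, so these counts do not separate a list from its level.

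Within each library, when EC were ordered by Cytl1 and divided into 3 parts of equal size, Bgn moved from 3149 CPM in the lowest part to 4918 CPM in the highest in ECKO replicate 1, from 4315 to 5569 CPM in ECKO replicate 2, from 3246 to 5155 CPM in ECWT replicate 1 and from 4047 to 5086 CPM in ECWT replicate 2. Cytl1 itself, which set the order, spanned 4088 to 11418 CPM in the first of these libraries. The lowest part held 20 of 22, 13 of 13, 11 of 11 and 3 of 3 of the cells of the clusters with capillary markers.

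The genes beside Cytl1 on chromosome 5 were near silent in comparison. Stk32b, a kinase gene on the other strand whose 5′ end lies 18348 bases before Cytl1, had 32.7, 22, 29.6 and 30.6 CPM over EC and a mean r of 0.073 with Cytl1. Evc2, 310464 bases before it and needed for Hedgehog signalling at the cilium, had 21.8 CPM, and Msx1, a homeobox gene 80665 bases after it, had 2.23 CPM with 1, 1, 2 and 7 counts. The nearest pseudogene and lincRNAs (Gm15732, Gm43763 and Gm20052) are not analysed here.

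Between the labels, the comparison that did not choose the gene, Cytl1 showed no detectable difference. With edgeR's quasi-likelihood test on counts summed over EC, the log2 fold change of ECKO over ECWT was -0.08 ± 0.20 (SE) with an adjusted p of 0.981 over 9485 genes, and the libraries overlap, since ECKO replicate 1 with 7410 CPM lies between ECWT replicate 1 with 7260 CPM and ECWT replicate 2 with 8441 CPM. By the same test 0 of 9485 genes were called at an adjusted p of 0.05, 0% of those tested, with 416 at an unadjusted p under 0.05, and DESeq2 also called 0, with 102 at an unadjusted p under 0.05. An exact two-sided permutation test of the log2 CPM gave p = 0.667, and with 2 libraries against 2 it cannot go below 0.333. The fold change was between -0.22 and 0.082 when a library was left out, its sign turning without ECWT replicate 2, and it was -0.04 without the 49 EC of the low clusters. Jag1 had a log2 fold change of 2.03 ± 0.36 in the same fit, at an adjusted p of 0.921. Within the lists, none of the tested genes was called either, including 0 of 21 of the matrix list and 0 of 19 of the Notch list.

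The 167 cells with 1200 genes or fewer, which entered no comparison above, carried Cytl1 at a like level, 6704, 6395, 6817 and 9355 CPM by library, with ranks of 9, 11, 12 and 9.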

How the data were processed

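Transcripts of single cells in wells were counted by SORT-seq, which reads their 3′ ends with molecular identifiers as in CEL-Seq2. Per the study's methods and the submitters' processing notes, the authors aligned reads with STAR to GRCm38 and analysed cells in Seurat 3.1. The deposited table holds estimated counts, that is, molecular identifiers corrected for collisions among 4096 possible ones. They were rounded to whole numbers here, and the identifiers were recovered as an alternative. The table has no column outside the 4 libraries. The table holds 991 cells, all of which the study analysed. The minimum of more than 1200 genes that its methods state leaves 824 of them and was applied here, so the cell set differs from the study's. Its limit on spike-in reads was not applied, and doublets were not called. As a check, cells with over 3-fold the median total of the library were dropped.

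Cells were clustered in Seurat 5.3.0 (2000 variable genes, 12 components, resolution 2.3). The resolution was raised until 14 clusters appeared, the number the study reports, and a resolution of 0.8 gave 9. Clusters were named from marker lists. A cluster was fibroblast or VSMC-like with 6 or more of those markers raised 3-fold after adding 20 CPM, and EC-like when 7 of 10 EC markers stayed above 0.333 of their mean. The 4 libraries differ in depth, and the total counts over EC were 843202 to 1638595. Counts summed over EC per library were tested with edgeR 4.0.16 (quasi-likelihood, TMM, filterByExpr, Benjamini-Hochberg) and DESeq2 1.42.0. On counts simulated for this comparison over 9485 genes, with 200 genes changed 4-fold, 88.5% were recovered. That simulation used a common dispersion of 0.0342. Recovery with dispersions that differ from gene to gene was not tested. In the measured counts Jag1, with a log2 fold change of 2.03, was not called by edgeR at an adjusted p of 0.921. Where nothing says that libraries of a label came from separate animals, p-values measure only the spread between these libraries, and intervals cover counting error only.

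Named were Cytl1, its 5 neighbours in level on each side, the 10 genes highest and lowest in within-library r, the 3 nearest annotated genes on each side, Jag1, markers and list members. Some members of these groups are not reported here. Genes that lead a cluster were named after their values were seen. Cytl1, the lists and the rules were chosen with earlier results of these data known. Alternatives were the scaling, the filter, the gene minimum, the choice of EC, thinning, Spearman's rho and leaving out libraries. Sequences are from RefSeq windows (GRCm38.p6).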

Additional observations from a re-analysis of the deposited data

How the results depend on the processing

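The level of Cytl1 over EC was 7295 to 7704 CPM when a library was left out, and it moved to 8902 CPM when Rn45s and mitochondrial genes were taken out of the total. Its rank was 6 in each setting but 2, with 4 in that total and 2 per kilobase of transcript. EC over all other cells changed sign without ECKO replicate 2, giving a range of -0.77 to 0.71 on the log2 scale over left-out libraries. That library holds 10 of 17 fibroblast-like cells, and the cause of the change in sign was not tested. Fibroblast-like cells over EC stayed between 0.72 and 1.59 and the low clusters over other EC between -2.89 and -1.85 in the settings run, those of both comparisons chosen after seeing the data.

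Of the 10 genes highest in r, 5 stayed among the 10 highest with Spearman's rho and 5 without the 2 low clusters, and 7 to 10 stayed in the other settings. Of the 10 lowest, 0 stayed with Spearman's rho, 0 without the 2 low clusters, 4 after thinning, 3 with a filter at 30% of EC, 6 above 1000 genes, 6 above 1500 genes, 5 over all deposited cells and 3 to 5 with a library left out, so that list is not stable. The cause was not tested.

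Between labels Cytl1 was never called, at adjusted p from 0.842 to 1.00 over the settings, and its log2 fold change was -0.22 to 0.082 over left-out libraries, with the sign turned to 0.082 without ECWT replicate 2. The count of genes called was 0 and became 67 with no filter on low counts and 0 to 156 with a library left out, where 143 genes were called without ECKO replicate 2 and 156 without ECKO replicate 1, with a lone library assumed to vary like the other label's. The cause was not tested. The mean over cells of the CPM per cell was not run for the tests between labels, since it holds no counts to test. No paired analysis was possible because the titles hold no replicate number that tells the libraries of 1 label apart. The replicate numbers used here only name the libraries, in accession order, and pair none. Depth limits what can be said of Ccr2 and of the 17 fibroblast-like cells, which are few in 3 of 4 libraries.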
